A study of Homo sapiens with 9 samples.

Results

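The 31 genes described here are genes that the EWSR1::FLI1 fusion protein is reported to activate in Ewing sarcoma: NR0B1, NKX2-2, CCND1, CAV1, GSTM4, FCGRT, EGR2, PRKCB, VRK1, KDSR, JAK1, GLI1, ID2, TERT, BCL11B, LIPI, HSPB8, FEZF1, PPP1R1A, CCK, KIT, UPP1, TNC, LOXHD1, ADRB3, JAK2, MAPT, PDGFC, DLG2, BCL11A and TRIM2. The rule is a list of names and uses no measured value, though the list was drawn up with earlier results of these data known. All 31 were found in the RefSeq table for GRCh38, which holds 19974 protein-coding genes. The locus of a gene was its annotated span with 5 kb on both sides, and a second window took 100 kb on both sides for distal elements.

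EWSR1::FLI1 joins the activating part of EWSR1 to the DNA-binding domain of FLI1, an ETS family transcription factor that recognises GGAA. The fusion is known to bind runs of repeated GGAA, far from genes as well as close to them, and to turn them into enhancers, while at other sites it displaces normal ETS factors. CHD4 is the nucleosome-remodelling ATPase of the NuRD complex, which also carries histone deacetylases and is best known for closing chromatin. In ATAC-seq, the Tn5 transposase inserts adapters where DNA is free of nucleosomes, so that sites rich in fragments mark accessible chromatin.

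The cells were SK-N-MC (SKNMC in the labels), an established human Ewing sarcoma line that carries the fusion. There were 3 groups of 3 biological replicates, all kept for 48 h in 100 ng/ml doxycycline, which switches on a short hairpin RNA. The groups shCHD4#1 and shCHD4#2 carried different hairpins against CHD4, and the group shScramble, labelled wildtype, carried a hairpin without that target. In every sample, 100 Drosophila S2 cells were added to 100000 SK-N-MC cells. The comparison asks how chromatin at the fusion's target genes looks once CHD4 is silenced.

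Each group has a single list of accessible regions, filed under its first replicate, and was treated as the combined list of the group. There is thus no spread between replicates, no difference below has a replicate check or a test, and the depth behind the lists is unknown. The lists held 122869 regions with shCHD4#1, 83241 with shCHD4#2 and 85775 in shScramble, with median widths of 1390, 1040 and 1450 bp. The authors' p was at most 0.05 for 14673, 10944 and 10781 of them, in the same order. ATAC-seq does not report the level of CHD4 itself, so the silencing was not checked here. In bulk cells, a site that is open in fewer cells and a site that is less open in each cell cannot be told apart. All 7 marker genes of Ewing sarcoma that were looked up had a region in every list, against 6 of 10 marker genes of other cell types, where ALB, HBB and KRT5 had none in any list.

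RefSeq promoter windows, 250 bases before to 50 bases after an annotated start site, were given for 24 of the 31 genes, 59 windows in all. The 6 printed here were chosen because the results below turn on them: the NR0B1 and NKX2-2 windows lay under a region in every list, the EGR2 and TRIM2 windows lay under a region with both hairpins only, the BCL11A window lay under a region in shScramble only, and the CAV1 window holds GGAA in tandem. Sequences run 5′ to 3′ along the gene, on GRCh38.p14, and capitals mark every GGAA on either strand (TTCC on the strand shown).
NR0B1, chrX:30309341-30309640, minus strand: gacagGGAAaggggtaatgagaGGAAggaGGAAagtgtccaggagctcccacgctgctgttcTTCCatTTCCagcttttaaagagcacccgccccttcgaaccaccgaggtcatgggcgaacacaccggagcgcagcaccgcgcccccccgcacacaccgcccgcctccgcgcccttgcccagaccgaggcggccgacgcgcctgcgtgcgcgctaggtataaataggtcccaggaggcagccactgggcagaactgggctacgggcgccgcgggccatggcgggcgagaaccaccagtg
NKX2-2, chr20:21512911-21513210, minus strand: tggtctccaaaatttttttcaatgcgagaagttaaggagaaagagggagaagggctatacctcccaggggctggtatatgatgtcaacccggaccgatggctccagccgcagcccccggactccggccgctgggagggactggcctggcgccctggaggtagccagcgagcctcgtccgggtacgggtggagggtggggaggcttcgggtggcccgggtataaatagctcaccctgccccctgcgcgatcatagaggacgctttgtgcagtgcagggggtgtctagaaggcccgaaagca
EGR2, chr10:62819118-62819417, minus strand: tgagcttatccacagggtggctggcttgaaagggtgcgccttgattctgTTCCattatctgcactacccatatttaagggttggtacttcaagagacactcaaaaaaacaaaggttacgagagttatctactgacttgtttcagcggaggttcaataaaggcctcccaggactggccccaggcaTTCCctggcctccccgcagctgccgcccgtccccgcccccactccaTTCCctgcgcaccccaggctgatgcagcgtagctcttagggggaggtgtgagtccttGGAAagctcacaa
TRIM2, chr4:153151913-153152212, plus strand: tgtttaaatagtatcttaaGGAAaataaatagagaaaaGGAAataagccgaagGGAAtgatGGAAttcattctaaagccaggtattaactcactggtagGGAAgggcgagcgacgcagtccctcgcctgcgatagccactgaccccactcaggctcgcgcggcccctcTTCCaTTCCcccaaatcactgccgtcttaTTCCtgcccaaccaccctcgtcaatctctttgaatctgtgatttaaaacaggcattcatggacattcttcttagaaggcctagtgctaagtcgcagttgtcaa
BCL11A, chr2:60553875-60554174, minus strand: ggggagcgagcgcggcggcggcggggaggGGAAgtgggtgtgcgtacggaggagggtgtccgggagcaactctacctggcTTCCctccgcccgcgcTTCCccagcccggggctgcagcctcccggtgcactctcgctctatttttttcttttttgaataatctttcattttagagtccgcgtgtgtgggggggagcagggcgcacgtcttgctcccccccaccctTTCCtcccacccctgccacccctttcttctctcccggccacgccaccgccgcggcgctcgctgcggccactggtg
CAV1, chr7:116524759-116525058, plus strand: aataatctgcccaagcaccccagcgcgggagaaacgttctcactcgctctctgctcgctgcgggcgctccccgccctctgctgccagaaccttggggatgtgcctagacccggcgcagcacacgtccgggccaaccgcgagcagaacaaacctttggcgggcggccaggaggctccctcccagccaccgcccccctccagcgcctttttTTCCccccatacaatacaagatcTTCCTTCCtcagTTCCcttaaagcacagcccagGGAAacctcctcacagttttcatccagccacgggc

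GGAA, searched on both strands, was found in 55 of the 59 windows (93.2%), against 95.5% of the 34961 windows of all genes. The NKX2-2 window printed above holds none. GGAA in 2 or more tandem copies was found in 5 windows (8.47%), which belong to CAV1, TNC, DLG2 and LOXHD1, against 3.67% of all windows. The 2 CAV1 windows overlap and hold the same copy, so these are 4 places. No window of these genes held 3 or more tandem copies, and 0.0858% of all windows did. CCGGAA, which contains GGAA and is the preferred core of many ETS factors, was found in 4 windows (6.78%) of JAK1, GSTM4 and DLG2, against 17.3% of all windows. These counts describe letters in short windows at start sites, and the repeats that the fusion binds at a distance from genes were not analysed here.

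Counted over all 31 loci, the region lists held 310 regions with shCHD4#1, 211 with shCHD4#2 and 216 in shScramble. Both ratios to shScramble were near those summed over all genes, 1.44 against 1.36 for shCHD4#1 and 0.977 against 0.994 for shCHD4#2. The median gene had 5 regions with shCHD4#1, 4 with shCHD4#2 and 4 in shScramble, and the genes ranged from 1 to 75, 0 to 36 and 0 to 47. Between genes of the list, the number of regions thus varied far more than between the groups.

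With shCHD4#1, 21 of the 31 loci had more regions than in shScramble and 7 had fewer, where 51.2% and 17.3% of all genes did. The share with more, 67.7% (Wilson 95% interval 50.1 to 81.4%, counting error only), takes in the share of all genes and the 56.8% of the 17994 genes with a region in any list. With shCHD4#2, 13 loci had more and 10 had fewer, where 30.7% and 32.9% of all genes did. After adding 1 to each number, the log2 ratio of regions to shScramble had a median of 0.49 with shCHD4#1 and 0.00 with shCHD4#2, beside 0.17 and 0.00 over all genes. The members are longer genes, with a median length of 39.5 kb against 24.2 kb. More regions with both hairpins were listed at 10 loci (CCND1, CAV1, GSTM4, EGR2, VRK1, GLI1, ID2, BCL11B, TNC and TRIM2) and fewer with both at 5 (NKX2-2, JAK1, JAK2, KIT and CCK), where 25.2% and 13.0% of all genes were so, and the hairpins went opposite ways at PRKCB, PPP1R1A, LOXHD1, MAPT and DLG2, 5 loci where 13.4% of all genes did. Once each list was cut to its best 83241 regions, 12 loci had more and 10 had fewer with shCHD4#1, where 29.1% and 35.0% of all genes did.

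**Figure D1:**
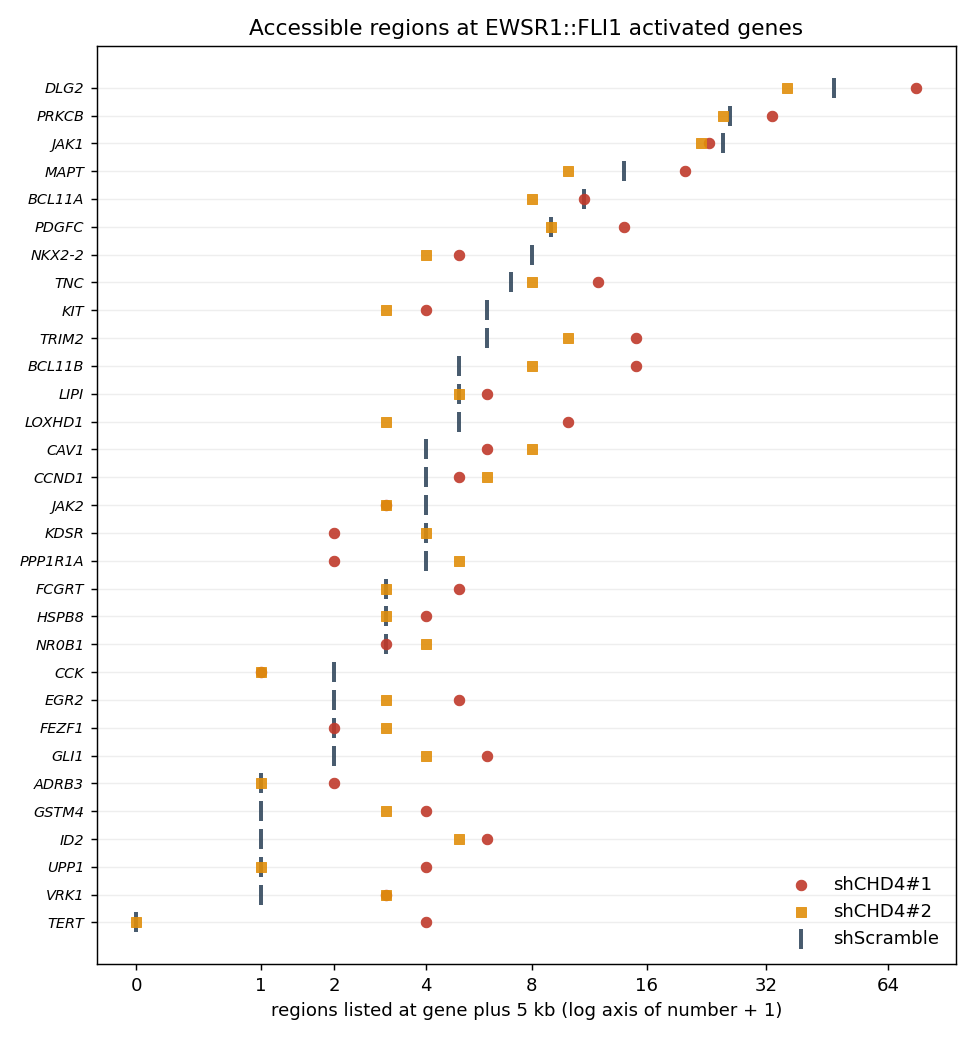
Number of listed regions at each gene plus 5 kb (log axis of number + 1) with shCHD4#1 (circles), shCHD4#2 (squares) and in shScramble (bars), 1 list per group. DLG2 leads every list with 75, 36 and 47 regions, TERT has 4, 0 and 0, and the symbols of both hairpins coincide at JAK2, CCK and VRK1.

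Changes of at least 2 regions in the same direction with both hairpins were found at 10 loci. CAV1, GSTM4, VRK1, GLI1, ID2, BCL11B and TRIM2 had at least 2 more, 7 of 31 where 11.0% of all genes did. NKX2-2, JAK1 and KIT had at least 2 fewer, 3 of 31 where 3.85% of all genes did. After regions at most 500 bp apart were joined, only ID2 (2 and 2 more), BCL11B (5 and 3 more) and NKX2-2 (3 and 2 fewer) of these 10 still differed by at least 2 with both hairpins, and KIT did not differ with either. Number and extent did not always go together: ID2 had fewer bases covered with both hairpins than in shScramble, NKX2-2 had more with shCHD4#1, and GLI1 and TRIM2 had fewer with shCHD4#2.

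To follow single sites, regions of the 3 lists that shared at least 1 base were merged. The 31 loci held 310 merged regions, each in 1 of 7 presence patterns. A region was kept when it was in all 3 lists, gained when it was listed with both hairpins and not in shScramble, and lost when it was listed in shScramble only. Within a kept site, regions of 2 lists can be joined through the third list without sharing a base themselves. Of the 310, 102 (32.9%) were kept, 30 (9.68%) were gained and 29 (9.35%) were lost. Over all 130785 merged regions the shares were 33.2%, 10.0% and 10.5%. The largest other class was listed with shCHD4#1 only, 89 regions (28.7%, against 29.0% overall), and 18 (5.81%, against 5.44%) were listed with shCHD4#2 only. A further 36 (11.6%, against 9.11%) were absent with shCHD4#2 only and 6 (1.94%, against 2.70%) were absent with shCHD4#1 only. At least 1 kept region was found at 30 loci, at least 1 gained region at 15 and at least 1 lost region at 13, where 78.2%, 30.9% and 29.0% of all genes had one. All 7 shares lay within a few percentage points of the shares over the whole genome, and gains and losses at these genes were about equally many in the lists as deposited. With lists cut to equal length, 25 regions were gained and 49 lost, but the shares of all merged regions under this cut were not computed. By region number, 9 loci then had more with both hairpins and 6 had fewer, where 18.0% and 21.4% of all genes did.

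**Figure D2:**
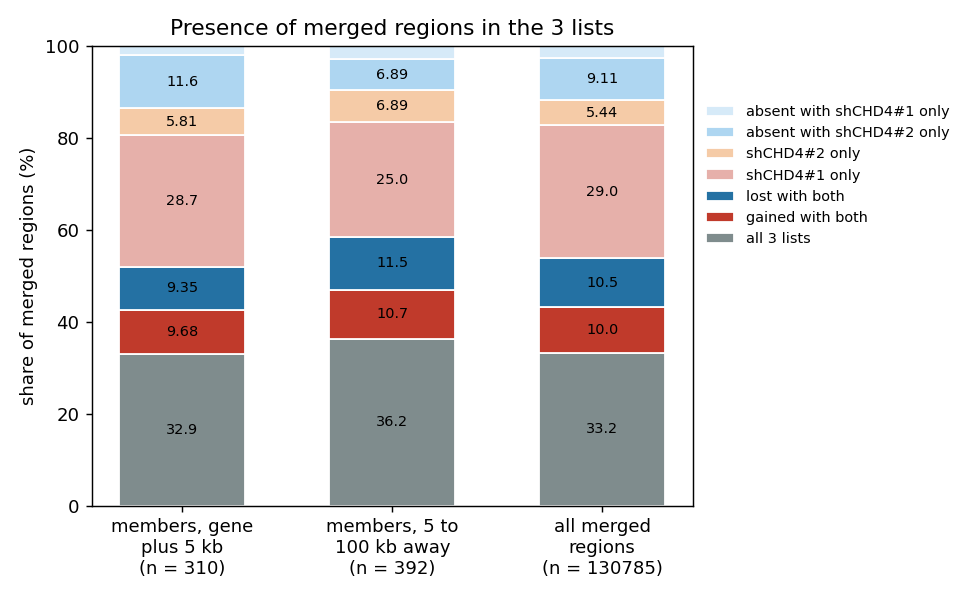
Share of merged regions (%) in each of the 7 presence patterns at the 31 genes plus 5 kb, from 5 to 100 kb away from them, and over all merged regions. Kept regions make up 32.9%, 36.2% and 33.2% of the bars, gained ones 9.68%, 10.7% and 10.0%, and lost ones 9.35%, 11.5% and 10.5%.

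Read from the side of shScramble, 178 of its 216 regions at the 31 loci (82.4%, 76.8 to 86.9%) overlapped a region with shCHD4#1, and 136 (63.0%, 56.3 to 69.1%) overlapped a region with shCHD4#2. Over the whole shScramble list, 77.4% and 64.3% of regions did. Read the other way, 41.0% of the 310 regions with shCHD4#1 and 29.9% of the 211 regions with shCHD4#2 had no partner in shScramble, against 44.9% and 30.5% overall.

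Most of the shScramble regions with a low p were still listed with each hairpin. Of the 24 with an authors' p of at most 0.05, at 19 of the genes, 22 were overlapped with shCHD4#1, 22 with shCHD4#2 and all 24 with at least 1 of the hairpins. The exceptions with shCHD4#1 were in GLI1 (chr12:57462351-57463810) and BCL11A (chr2:60550271-60550920), and those with shCHD4#2 were in LOXHD1 (chr18:46595621-46597180) and PDGFC (chr4:156805291-156806310). None of these 4 was missing with both, and the one in GLI1 was the best ranked of the 24. The share overlapped was 91.7% with each hairpin (Wilson 95% interval 74.2 to 97.7%), beside 96.1% with shCHD4#1 and 95.8% with shCHD4#2 among all 10781 such regions of shScramble. The lost regions ranked lower: the list of shScramble is sorted by p, and their median place was 71.1% of the way down, with the best at 20.3%, against 34.9% for the best shScramble region of each kept site. Gained regions had median places of 36.0% with shCHD4#1 and 54.6% with shCHD4#2.

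Among the transcription factors, NR0B1, the orphan nuclear receptor DAX1 and a classic fusion target, had all of its chromatin regions kept. The gene lies at chrX:30304206-30309390 on the minus strand. It had 3 regions with shCHD4#1, 4 with shCHD4#2 and 3 in shScramble, which merged into only 2 sites. The site over its start, chrX:30307041-30311950, covered 3020 bp with shCHD4#1, 3890 bp with shCHD4#2 and 4730 bp in shScramble. The site at its downstream end, chrX:30301621-30305400, covered 3270, 1800 and 3780 bp, in the same order. Both sites thus had fewer covered bases with each hairpin, and neither was lost.

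NKX2-2, a homeodomain repressor used as a diagnostic marker of Ewing sarcoma, had 5 regions with shCHD4#1, 4 with shCHD4#2 and 8 in shScramble (chr20:21511017-21522689, minus strand). Most of the difference with shCHD4#1, and part of that with shCHD4#2, came from 1 kept site, chr20:21508251-21521760. It was listed as 3 regions over 13470 bp with shCHD4#1, 4 regions over 11890 bp with shCHD4#2 and 6 regions over 10800 bp in shScramble. The site was thus listed in fewer and longer pieces with both hairpins, and it covers the start site at 21512960, inside the gene, in every list. The promoter window printed above belongs to this inner start site. The most upstream start site, at 21522689, was covered in no list, with 0 of its 300 window bases under a region. A region 1082 bp beyond the gene's upstream end, chr20:21523771-21526160, was lost with both and ranked at 85.0% of the shScramble list. The region chr20:21506461-21508020 was absent with shCHD4#2 only, and chr20:21521961-21522290 was listed with shCHD4#1 only.

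EGR2, a zinc-finger factor of neural crest and Schwann cells, had 5 regions with shCHD4#1, 3 with shCHD4#2 and 2 in shScramble. They covered 5725, 2840 and 1320 bp. The gained region, chr10:62819021-62820250, was 1210 bp wide with shCHD4#1 and 1090 bp with shCHD4#2, ranked at 21.3% and 34.9%, and covered the gene's most upstream start site at 62819167. Of the promoter window printed above, 300 bases were covered with shCHD4#1, 257 with shCHD4#2 and 0 in shScramble. The start site inside the gene, at 62816366, was covered in every list.

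GLI1, the transcriptional effector of Hedgehog signalling, had 6 regions with shCHD4#1, 4 with shCHD4#2 and 2 in shScramble. Apart from chr12:57474171-57475440 and chr12:57476271-57477080, both listed with shCHD4#1 only, these regions formed 1 kept site, chr12:57449981-57470340. There, 3 regions with shCHD4#1 and 4 with shCHD4#2 overlapped a single shScramble region of 11750 bp, so the same stretch was listed in more pieces. This stretch reaches beyond the 5 kb window. Counted only within the gene plus 5 kb, the bases covered were 13796, 8866 and 8996, more with shCHD4#1 and slightly fewer with shCHD4#2. The site held some of the best-ranked regions of all members, with best p-values of 1.8e-05, 1.6e-05 and 1.9e-05 in the authors' lists. These were at different places: chr12:57458141-57460060 with shCHD4#1 and chr12:57458031-57460150 with shCHD4#2, but chr12:57462351-57463810 in shScramble. The shScramble region over the place of the hairpins' best regions had an authors' p of 0.95.

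ID2, an inhibitor of basic helix-loop-helix factors, was likewise listed in more pieces, with 6 regions with shCHD4#1, 5 with shCHD4#2 and 1 in shScramble. Here 5 regions with shCHD4#1 and 4 with shCHD4#2 overlapped the single shScramble region, chr2:8677101-8685180. The pieces covered fewer bases, 7460 with shCHD4#1 and 7510 with shCHD4#2, against 8080 in shScramble. A gained region, chr2:8685961-8686520, lay 780 bases beyond the shScramble region, with 480 bp covered with shCHD4#1 and 560 bp with shCHD4#2.

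BCL11B, a zinc-finger repressor of neural and T-cell development, had 15 regions with shCHD4#1, 8 with shCHD4#2 and 5 in shScramble, over 23480, 10380 and 8570 bp. It had 3 gained regions and no lost one. The best ranked, chr14:99274641-99275440, lay 2444 bp upstream of the gene at 15.2% of the shCHD4#1 list and 16.7% of the shCHD4#2 list. The others, chr14:99253051-99254680 and chr14:99232371-99234460, lay inside the gene.

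Its relative BCL11A had 11 regions with shCHD4#1, 8 with shCHD4#2 and 11 in shScramble. A region of 1220 bp over its most upstream start site, chr2:60553711-60554930, was lost with both. It was placed at 59.7% of the shScramble list, and a shCHD4#2 region lay 60 bases from it. Of the BCL11A window printed above, 0 of the 300 bases were covered with either hairpin, against all 300 in shScramble. FEZF1, a zinc-finger factor of the developing forebrain, kept 1 site, chr7:122297281-122308210, listed as 2, 3 and 2 regions over 9120, 10850 and 9430 bp.

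**Figure D3:**
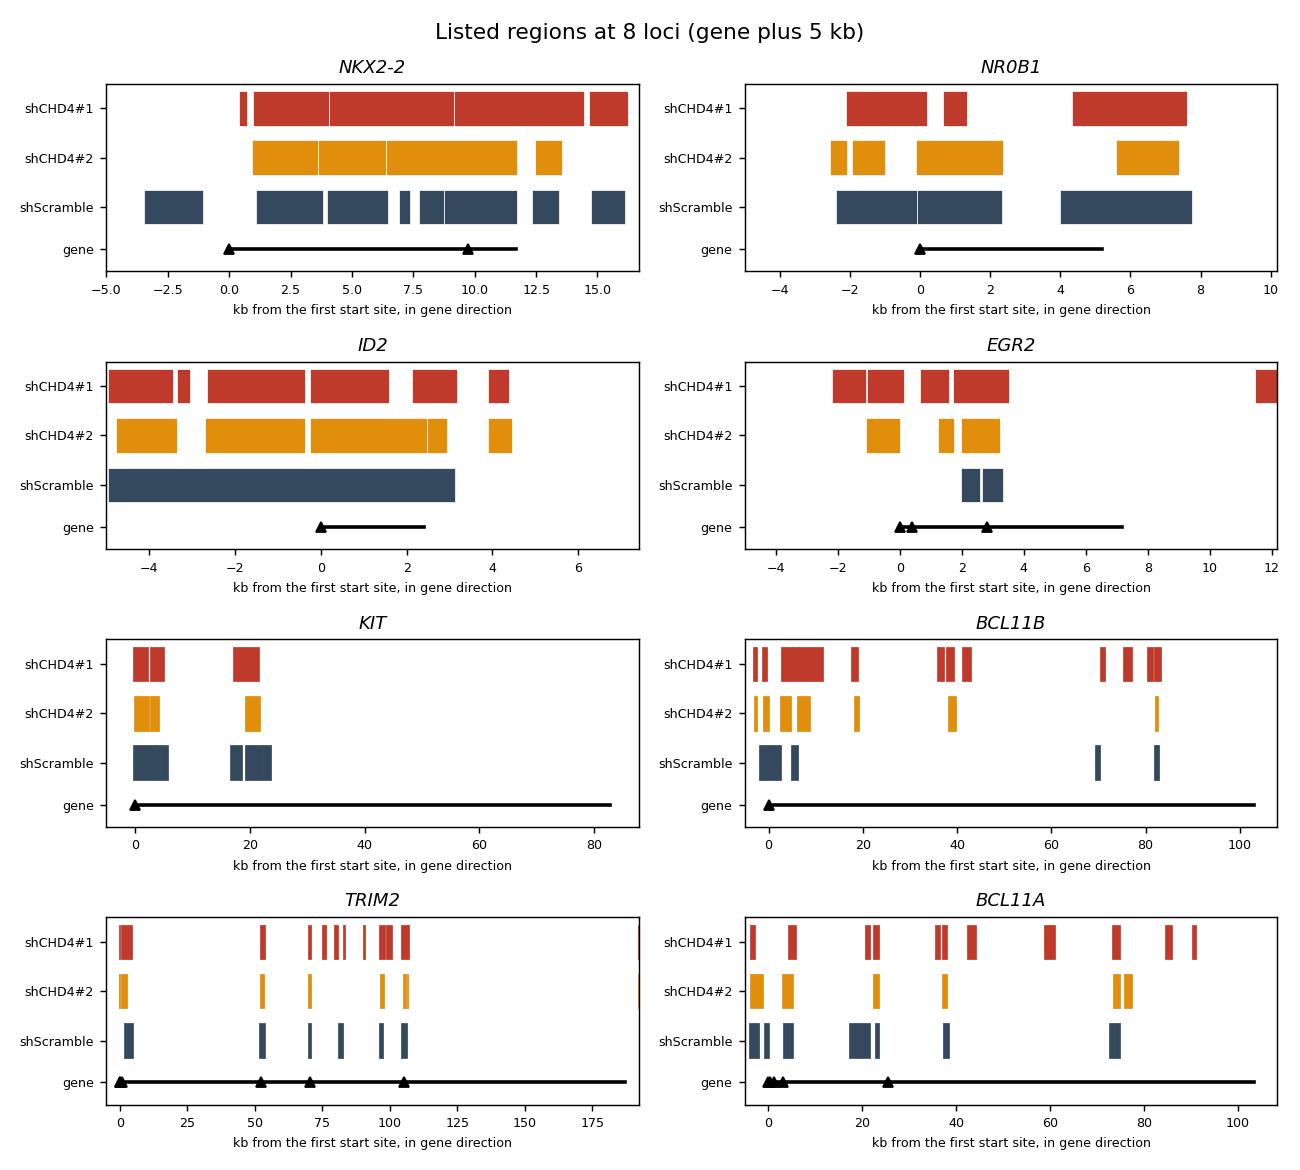
Listed regions (boxes) at 8 of the genes plus 5 kb, against distance in kb from the most upstream start site in the direction of the gene; the black line is the gene and triangles are annotated start sites. ID2 shows 1 long box in shScramble and 6 and 5 shorter ones with shCHD4#1 and shCHD4#2, while NKX2-2 shows fewer boxes with both hairpins (5 and 4, against 8 in shScramble).

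Among the cell-cycle and telomere genes, CCND1, which encodes cyclin D1 and drives entry into the cell cycle, had 5 regions with shCHD4#1, 6 with shCHD4#2 and 4 in shScramble, but fewer bases covered, 5420 and 4210 bp with the hairpins against 7610 bp. The gene lies at chr11:69641156-69654474. The kept site that spans its lower-numbered end, chr11:69640771-69643010, was 290 bp with shCHD4#1 and 140 bp with shCHD4#2, against 2240 bp in shScramble, and only the shScramble region covered the end itself. The kept site chr11:69636441-69639510 likewise had fewer covered bases, 980 and 530 bp against 2520 bp. Its shCHD4#2 region, chr11:69638961-69639490, shared no base with the shScramble region and was joined to it only through shCHD4#1.

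The third kept site of CCND1, chr11:69643791-69646500, had 1480 bp covered with shCHD4#1 and 2710 bp with shCHD4#2, against 1070 bp in shScramble. The shCHD4#1 region there, chr11:69644991-69646470, shared no base with the shScramble region, chr11:69643841-69644910. These regions were joined only through shCHD4#2. The gained region chr11:69639511-69640570 filled the gap between the first 2 kept sites, 200 bases from a shScramble region, with 1060 and 640 bp. A region of 190 bp, chr11:69643301-69643490, was listed with shCHD4#2 only, and chr11:69656151-69659250 was absent with shCHD4#2 only. Accessible bases were thus placed differently around this end of CCND1 with both hairpins, and no shScramble region of the locus was missing from both.

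TERT, the catalytic subunit of telomerase, was the only member with no region in shScramble and with none in all 3 lists. It had 4 regions with shCHD4#1, at chr5:1247331-1250770, chr5:1262301-1264380, chr5:1273801-1275170 and chr5:1295981-1299620, and 0 with shCHD4#2. The best ranked of them stood at 27.4% of the shCHD4#1 list and the lowest ranked at 92.7%, and none covered the start site. VRK1, a nuclear kinase of dividing cells, had 3 regions with shCHD4#1, 3 with shCHD4#2 and 1 in shScramble, over 4070, 2520 and 1190 bp. Its kept site, chr14:96795731-96797640, spans the lower-numbered end of the gene, which was covered with shCHD4#2 and in shScramble but not with shCHD4#1. The gained region chr14:96797731-96799890 lay 90 bases from the shScramble region, inside the gene.

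Among the signalling genes, PRKCB, which encodes protein kinase C beta, had 33 regions with shCHD4#1, 25 with shCHD4#2 and 26 in shScramble, over 68520, 31460 and 52450 bp. It had 15 kept, 4 gained and 3 lost sites. The best-ranked gained ones were chr16:23946261-23948880, chr16:24069391-24070400 and chr16:24101771-24102990. The lost ones were chr16:24187861-24189440, chr16:24045531-24047030 and chr16:24043901-24045400, and the one at 24187861 was the best-ranked lost region of all members.

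JAK1, a tyrosine kinase of cytokine receptors, had 23 regions with shCHD4#1, 22 with shCHD4#2 and 25 in shScramble, and fewer bases covered with both, 47730 and 32172 bp against 59330 bp. It had 9 kept, 2 gained and 5 lost sites, more losses than gains. The gained ones were chr1:64967211-64968590 and chr1:65064401-65066570, and the best-ranked lost ones were chr1:64919871-64922040, chr1:64979331-64981380 and chr1:64865231-64867600. JAK2, a kinase of the same family, had 3 regions with each hairpin and 4 in shScramble, and lost chr9:4978971-4979820.

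KIT, the receptor tyrosine kinase for stem cell factor, had 4 regions with shCHD4#1, 3 with shCHD4#2 and 6 in shScramble, over 9420, 6860 and 13000 bp. Its start site was covered in every list. The lost region, chr4:54680171-54681680, was 1510 bp wide, ranked at 34.4% of the shScramble list and began at the base after a kept shScramble region, chr4:54677081-54680170. That neighbour measured 2380 bp with shCHD4#1 and 2620 bp with shCHD4#2, against 3090 bp in shScramble, so both the kept site and the region beside it covered less with the hairpins.

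PPP1R1A, an inhibitor of protein phosphatase 1, had 2 regions with shCHD4#1, 5 with shCHD4#2 and 4 in shScramble, all within 1 kept site, chr12:54577351-54592610. A shCHD4#1 region of 12120 bp there was overlapped by 4 regions of each other list, and the bases covered were 14200, 11380 and 10290, so the list with the fewest regions covered the most bases. PDGFC, a growth factor, had 14 regions with shCHD4#1, 9 with shCHD4#2 and 9 in shScramble, gained chr4:156905881-156908100 and chr4:156948241-156951120 and lost chr4:156903871-156905110. CCK, which encodes the peptide hormone cholecystokinin, had 1, 1 and 2 regions over 620, 970 and 3230 bp, and lost chr3:42266231-42266930 just upstream of the gene. ADRB3, the beta-3 adrenergic receptor, had 2, 1 and 1 regions over 4750, 399 and 930 bp.

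Among the membrane, matrix and metabolic genes, CAV1, the scaffold protein of caveolae, had 6 regions with shCHD4#1, 8 with shCHD4#2 and 4 in shScramble, and more bases covered with both, 11930 and 13940 bp against 9950 bp. Its start site, in the window with tandem GGAA printed above, was covered in every list. The gained regions lay inside the gene, at chr7:116534461-116535750 with 1080 and 960 bp and at chr7:116556501-116559540 with 2210 and 2050 bp. No region of the locus was lost.

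GSTM4, a glutathione S-transferase, had 4 regions with shCHD4#1, 3 with shCHD4#2 and 1 in shScramble, over 4830, 2070 and 1030 bp. The kept site, chr1:109667331-109669140, covers the start site of the neighbouring GSTM2, and the gained region, chr1:109669881-109670770, lies inside GSTM2 too. The start site of GSTM4 itself was covered in no list. FCGRT, the neonatal Fc receptor, had 5, 3 and 3 regions, a start site covered in every list, and gained regions at chr19:49513331-49514210 and chr19:49514731-49516400 inside the gene.

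TNC, which encodes the matrix protein tenascin C, had 12 regions with shCHD4#1, 8 with shCHD4#2 and 7 in shScramble. Its kept start site region, chr9:115114201-115121500, ranked high in every list, with the authors' best p-values at 0.0078, 0.0026 and 0.00097. The gained region chr9:115056331-115059010 lay inside the gene. LIPI, a membrane-associated lipase that marks Ewing sarcoma, had 6, 5 and 5 regions but fewer bases covered with both hairpins, 16445 and 13975 bp against 25750 bp. It gained chr21:14165681-14167900 and lost chr21:14134331-14137460, chr21:14129901-14132900 and chr21:14184401-14188540, all 3 placed low, at 71.1% to 89.8% of the shScramble list.

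KDSR, a reductase of sphingolipid synthesis, had 2, 4 and 4 regions and lost chr18:63342201-63343100. Its best-ranked region in every list lay just upstream of its start site at 63367206. The authors' p there was 0.03 with shCHD4#1, 0.0069 with shCHD4#2 and 0.011 in shScramble. UPP1, uridine phosphorylase, had 4, 1 and 1 regions, and HSPB8, a small heat-shock protein, had 4, 3 and 3; neither had a gained or lost region. LOXHD1, a stereociliary protein of hair cells, had 10 regions with shCHD4#1, 3 with shCHD4#2 and 5 in shScramble, and lost chr18:46482181-46483610. Its start site region, chr18:46656901-46659440, ranked high in every list, with the authors' best p-values at 0.00015, 0.00081 and 6.6e-05.

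Among the neuronal genes, TRIM2, a ubiquitin ligase of axons, had 15 regions with shCHD4#1, 10 with shCHD4#2 and 6 in shScramble. The bases covered were 19867, 9017 and 12020, more with shCHD4#1 and fewer with shCHD4#2. It gained 3 regions and lost none. The region chr4:153151991-153152360 covered the most upstream start site, at 153152163, with 222 and 300 of the 300 bases of the printed window covered, against 0 in shScramble. The others were chr4:153258391-153259360, which directly adjoined a shScramble region, and chr4:153344071-153344940 at the start site of the neighbouring MND1.

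DLG2, a scaffold protein of synapses and the longest of the genes at 2173362 bp, had 75 regions with shCHD4#1, 36 with shCHD4#2 and 47 in shScramble, over 115940, 43870 and 80890 bp. It had 20 kept, 5 gained and 8 lost sites. The best-ranked gained ones were chr11:83612531-83613650, chr11:84236071-84236980 and chr11:84247261-84248610. The best-ranked lost ones were chr11:84628711-84629480, chr11:84261471-84262530 and chr11:83833401-83834870. Of the 89 sites listed with shCHD4#1 only, 31 lay in this gene. MAPT, the microtubule-binding protein tau, went the same ways with 20, 10 and 14 regions over 41160, 14180 and 24410 bp, and lost chr17:46004651-46005420 and chr17:46019741-46021130.

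At start sites, 17 of the 24 genes with a window had a start site covered with shCHD4#1, 19 with shCHD4#2 and 19 in shScramble, and 16 had one covered in every list, where 55.4%, 56.4%, 47.6% and 37.9% of the 15812 genes with a window did. A gene counts here once any of its start sites is covered. The members have more windows per gene, 59 for 24 genes against 34961 for 27195 genes in the full promoter set, so these shares are not like for like. By window, 33, 35 and 31 of the 59 start sites were covered with shCHD4#1, with shCHD4#2 and in shScramble. The share of all windows was not computed. More start sites were covered with both hairpins at EGR2, TRIM2 and DLG2, 3 of 24 where 11.3% of all genes were so, and fewer at BCL11A, 1 of 24 where 3.72% were so. At EGR2 the numbers were 2, 2 and 1 of 3 start sites, at TRIM2 6, 6 and 3 of 6, at DLG2 5, 5 and 4 of 9, and at BCL11A 0, 1 and 2 of 5. At BCL11B, CCK and JAK1 a start site changed with 1 hairpin only, and at the other genes the number of covered start sites was the same in every list. No start site of GSTM4, TERT, KDSR or UPP1 was covered in any list. At KDSR a region lay just upstream in every list, so that 6 of the 300 window bases were covered with shCHD4#1, 246 with shCHD4#2 and 56 in shScramble.

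The extent of the regions differed more between the hairpins than their number. The 31 loci held 549 kb of listed regions with shCHD4#1, 303 kb with shCHD4#2 and 439 kb in shScramble, ratios of 1.25 and 0.690 beside 1.34 and 0.812 over all genes. By bases, 21 loci had more and 10 fewer with shCHD4#1, where 62.0% and 25.9% of all genes did, and 10 had more and 20 fewer with shCHD4#2, where 30.5% and 54.9% did. Both hairpins gave more bases at 8 loci and fewer at 8, where 27.4% and 23.1% of all genes were so. The 8 with fewer were ID2, JAK1, JAK2, NR0B1, KIT, CCND1, LIPI and CCK, and the 8 with more were GSTM4, EGR2, VRK1, BCL11B, FCGRT, PPP1R1A, HSPB8 and CAV1.

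Where each list had exactly 1 region at a kept site, widths could be set side by side. At the 48 such sites of the members, the median width was 1645 bp with shCHD4#1, 1160 bp with shCHD4#2 and 1800 bp in shScramble. The region was narrower than in shScramble at 29 sites with shCHD4#1 (60.4%, 46.3 to 73.0%) and at 45 sites with shCHD4#2 (93.8%, 83.2 to 97.9%), where 50.5% and 74.5% of the 23687 such sites of the genome were. The median shScramble width at those sites of the genome was 1520 bp, below that of the members. Among sites whose shScramble region was at least 1800 bp wide, 20 and 24 of 24 member sites were narrower (83.3% and 100%), where 67.3% and 85.7% of 8159 sites of the genome were. Sites picked for a wide shScramble region tend to be narrower in any other list by construction. Whether this acts equally in both sets was not tested. The limit is the members' own median, and it kept 24 of 48 member sites but 8159 of 23687 sites of the genome. Their median shScramble widths were then 2410 and 2280 bp. The shCHD4#2 list holds narrower regions throughout the genome.

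**Figure D4:**
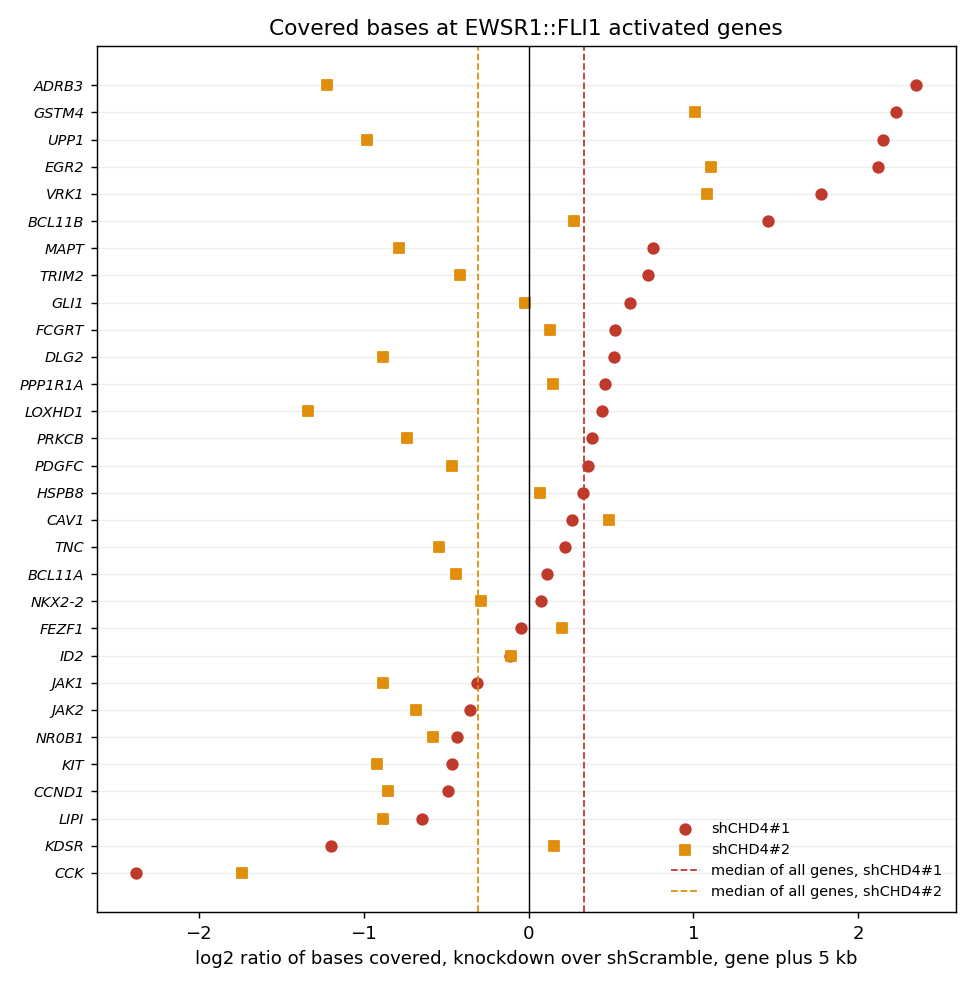
Log2 ratio of bases covered at each gene plus 5 kb, shCHD4#1 (circles) and shCHD4#2 (squares) over shScramble, for the 30 genes with covered bases in shScramble, with dashed lines at the medians of all genes. Circles lie above 0 at 20 of these genes and squares at 10, and CCK, LIPI and CCND1 lie below 0 for both.

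The 100 kb windows, which take in the genes, held 678 regions with shCHD4#1, 497 with shCHD4#2 and 491 in shScramble. More regions were listed at 24 of the 31 windows with shCHD4#1 and fewer at 4, where 79.4% and 11.4% of all genes were so, and at 15 and 15 with shCHD4#2, where 41.3% and 44.3% were so. The windows held 702 merged regions, 244 kept, 72 gained and 74 lost. Of these, 392 lay between 5 and 100 kb from the genes, and 142 of them (36.2%) were kept, 42 (10.7%) gained and 45 (11.5%) lost, beside 33.2%, 10.0% and 10.5% over all merged regions. At least 1 gained region was found at 24 windows and at least 1 lost region at 24, where 72.7% and 75.0% of all genes had one. Of the 72 gained regions, 2 covered a start site of a member, 6 that of another gene, 23 lay inside a member away from its start sites and 41 elsewhere. Of the 74 lost ones the numbers were 1, 2, 25 and 46, and of the 244 kept ones they were 26, 30, 65 and 123. Most sites of each kind thus lay away from start sites.

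The best-ranked gained region of all, and the only one with p at most 0.05 in both hairpin lists, was chr5:1385111-1386260, 90043 bp from TERT and outside any gene, with p-values of 0.0054 with shCHD4#1 and 0.017 with shCHD4#2. It was followed by chr11:69700261-69701600 inside FGF19 in the CCND1 window, the BCL11B region at 99274641, chr12:54595461-54597120 at 6802 bp from PPP1R1A, and the GSTM4 region at 109669881. The next were chr12:119133081-119135230 inside SRRM4 in the HSPB8 window, chr18:63320111-63320390 at 7336 bp from KDSR, the PRKCB region at 23946261, chr19:49473051-49474510 at the start site of FLT3LG in the FCGRT window, and the ID2 region at 8685961. They ranked from 8.26% to 30.9% by the worse of their places in the 2 hairpin lists. Of the 72 gained regions, 18 lay at most 500 bases from a shScramble region.

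The best-ranked lost regions stood lower in their list, from 20.3% to 42.5% of the shScramble list, and none had a p of at most 0.05. After the PRKCB region at 24187861 came chr12:54680151-54681630 at 91492 bp from PPP1R1A, chr7:116470841-116472670 at 52339 bp from CAV1, and chr12:57483031-57483940 inside ARHGAP9 and chr12:57490981-57492250 inside MARS1, both in the GLI1 window. The PRKCB region at 24045531 and the KIT region at 54680171 were next, followed by chr11:69661491-69662480 at 7017 bp from CCND1, chr7:116434371-116435880 at 89129 bp from CAV1 and chr4:157045091-157046210 at 73292 bp from PDGFC. Of the 74 lost regions, 30 lay at most 500 bases from a region of a hairpin list. A region near a member need not act on it, and whether these regions lie in exons or introns was not analysed here.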

How the data were processed

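ATAC-seq was done on SK-N-MC cells in 9 samples, 3 groups of 3, grouped by the labels. The submitters' processing notes name the builds GRCh38 and dm6 and the tools BWA, deepTools 3.2.1, SAMtools 1.9, FastQC 0.11.7 and Trimmomatic 0.36. Which program called the regions is not given in the sources used here, and neither is a correction for Tn5 cutting or a use of the Drosophila spike-in. Each could change how many regions a list holds. The 1 deposited list per group carries the name of ChIP-R, which combines replicates, and is filed under replicate 1, so that treating it as the group's combined list is an inference. Each deposited region has 2 of the authors' scores and 2 columns of the authors' own p-values and q-values. The p-value was used to rank and filter within a list. A place in a list is thus an order by p and no measure of how open a site is. Regions of equal p follow chromosome order. For example, the shScramble region of 8080 bp over the ID2 start site had a p of 0.95 and stood at 95.1%.

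Regions on chromosomes 1 to 22 and X were kept, made 1-based and merged across lists where they shared at least 1 bp (Python 3.11.15, pandas 2.3.3, numpy 2.4.6). Genes came from the RefSeq table of GRCh38.p14. Start sites came from the RefSeq promoter windows of 24 genes, in place of gene ends. Ratios of region number had 1 added. Wilson intervals (statsmodels 0.14.6) take neighbouring regions as independent and hold counting error alone. With 1 list per group there was no test and no known depth. Regions can directly adjoin others of the same list, as 9.50%, 8.06% and 7.72% of them do with shCHD4#1, with shCHD4#2 and in shScramble, so a number of regions depends on how a stretch was divided. Merging and counting were tested on simulated regions.

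Coordinates are given for every region at NR0B1, NKX2-2 and CCND1, for gained or lost regions within 5 kb of a member (at most the 3 best ranked per gene), for the 10 best-ranked gained and lost regions within 100 kb, and for a few kept sites chosen after their values were seen. Full values are given for genes with at least 2 regions more or fewer with both hairpins. The members and lists were chosen with earlier results of these data known. Alternatives were a p of at most 0.05, the best 20000 regions, lists of equal length, joining at 500 bp, 50 kb windows, an overlap of 50%, bases covered, and leaving out regions over 20 kb or with negative values.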

Additional observations from a re-analysis of the deposited data

Results flagged for a closer look

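At 5 of the 31 genes the hairpins went opposite ways from shScramble, by the number of regions at the gene plus 5 kb. With 1 list per group, this difference between the hairpins was not tested. The log2 ratio to shScramble with shCHD4#1 minus that with shCHD4#2 was 1.45 at LOXHD1, 1.04 at DLG2, 0.94 at MAPT and 0.38 at PRKCB, where shCHD4#1 had more regions and shCHD4#2 fewer. It was -1.0 at PPP1R1A, where shCHD4#1 had fewer and longer regions and shCHD4#2 had more. Over all genes, 13.4% went opposite ways, and the shCHD4#1 list is longer throughout the genome; the part of list length in these differences was not tested.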

How the results depend on the processing

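Joining regions at most 500 bp apart, or leaving out regions over 20 kb or with negative values, changed none of the counts and shares over the members by more than 1.5 times or beyond their counting interval. Joining did change 18 of the 20 differences in region number of single genes, to 0 at KIT with both hairpins, at JAK1 with shCHD4#1 and at TRIM2 with shCHD4#2. With only regions of p at most 0.05, 3 genes had more regions and 8 fewer with shCHD4#1, where 20.3% and 9.78% of all genes did. With shCHD4#2, 5 had more and 6 fewer, where 16.7% and 11.1% of all genes did. With both, 1 had more and 2 fewer, where 10.4% and 5.96% of all genes did. At this limit, 2 merged regions were gained and 4 lost. With shCHD4#1, 54.2% of shScramble regions were then kept and 35.0% of its own were absent from shScramble (36.4% with shCHD4#2), and a gene end was covered in every list at 3 genes and a start site at 4, against 18 and 16 with all regions. With the best 20000 regions of each list, 4 genes had more and 12 fewer with shCHD4#1, 8 more and 5 fewer with shCHD4#2 and 4 more with both; 9 regions were gained and 13 lost, 50% were kept with shCHD4#1, 42.0% of shCHD4#2 regions were absent from shScramble, and 3 gene ends and 5 start sites were covered in every list. With lists of equal length, 12 genes had more regions with shCHD4#1, where 29.1% of all genes did. Then 25 regions were gained and 49 lost, 63.2% were kept with shCHD4#1, and 8 gene ends and 8 start sites were covered. With 50 kb windows 53 regions were gained and 55 lost. With an overlap of 50% of the shorter region, 44 were lost, 73.1% were kept with shCHD4#1 and 48.4% of its regions were absent from shScramble. By bases covered, 20 genes had less with shCHD4#2 and 8 with both. Shorter lists hold fewer regions and wider windows hold more by construction. The direction between lists is a separate matter. At p at most 0.05 the whole lists held 14673 regions with shCHD4#1, 10944 with shCHD4#2 and 10781 in shScramble. At the members they held 20, 22 and 24, in the same order. The cause of these changes was not tested. Shares of gained, lost and kept regions over the genome were not computed under these alternatives. Nor were shares of all genes with the best 20000 regions. Single genes turned direction as follows. At p at most 0.05, the difference in region number was -1 at GSTM4 and -1 at VRK1 with shCHD4#1, 1 at JAK1 with shCHD4#1 and -1 at TRIM2 with shCHD4#2. With the best 20000 it was -1 at VRK1 and -1 at TRIM2 with shCHD4#1, and with 50 kb windows -2 at GLI1 with shCHD4#2. In bases it was 810 at NKX2-2 and -620 at ID2 with shCHD4#1, and -130 at GLI1, -570 at ID2 and -3003 at TRIM2 with shCHD4#2. No paired analysis was possible because each group has 1 list and no values per replicate, and for the same reason no replicate could be left out in turn. The overlap of 50% was applied to regions only, and bases covered to genes only. Depth is unknown, so its limit on these counts is unknown too.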

Other observations

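A further 24 genes reported as activated by the fusion, such as STEAP1, a membrane metalloreductase, EZH2, the histone methyltransferase of Polycomb, and SOX2, a stem cell factor, were counted in the same way. With shCHD4#1, 15 had more regions at the gene plus 5 kb and 4 had fewer, where 51.2% and 17.3% of all genes did. With shCHD4#2, 11 had more and 7 had fewer, where 30.7% and 32.9% did. The median log2 ratio was 0.39 with shCHD4#1 and 0.00 with shCHD4#2, beside 0.17 and 0.00 over all genes, and 22 of the 24 had a region in all 3 lists, as 78.2% of all genes did. AURKA, a mitotic kinase, and DKK2, a secreted Wnt regulator, were the exceptions: AURKA had 0 regions with shCHD4#1, 1 with shCHD4#2 and 2 in shScramble, and DKK2 had 1, 1 and 0. SOX6, a factor of cartilage and neural development, had 34, 22 and 30 regions, with 1 gained and 9 lost. PAPPA, a protease that frees insulin-like growth factors, had 17, 10 and 8, with 3 gained and 1 lost.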
